A study of Drosophila melanogaster with 6 samples.

Results

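Genes of mitosis, the spindle and cytokinesis were compared between a later and an earlier stage of the pupal eye. The set holds 49 genes, found by exact match of the gene name out of 17649 genes in the deposited table. They were chosen by name for their known roles, but with earlier results of these data known. RNA was sequenced from whole eyes of Canton S pupae, a wild-type strain of Drosophila melanogaster, at 40 h and at 21 h after puparium formation (APF). Each stage had 3 libraries, each made from a pool of dissected eyes, with no mutation and no treatment at either stage. The authors deposited 1 FPKM value for each gene and stage (fragments scaled by transcript length and by library size), which Cuffdiff pooled over the 3 libraries.

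Every FPKM below is therefore the authors' pooled value, without an SD, an interval or a test across replicates, and the table gives no fragment counts behind it. Differences are given as log2 ratios of 40 h over 21 h after adding 0.1 FPKM to both values, which understates the change of genes of low level. A gene is said to have fallen or risen where the ratio was at least 2-fold and the mean of both stages was at least 1 FPKM. That minimum was passed by 9442 genes, whose median log2 ratio was -0.01. In RNA from whole eyes, fewer cells that express a gene and less RNA per cell cannot be told apart.

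Entry into mitosis depends on the kinase CDK1, which is switched on by binding cyclins A, B and B3 and by the phosphatase String. The spindle is then built by kinesin motors from centrosomes, chromosomes attach to it through kinetochores, and a checkpoint holds back the anaphase-promoting complex (APC/C) until all are attached. The APC/C destroys securin and the cyclins, separase parts the sister chromatids, and the central spindle guides the contractile ring of cytokinesis. In the fly eye most divisions take place in the larval disc, and the final ones give rise to the cells of the bristle groups early in pupal life. All retinal cells then stay out of the cell cycle.

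The eyes at both stages expressed the genes that define the tissue. All 9 eye markers passed the minimum, with levels of 19.8 (B-H1) to 164 (chp) FPKM at 40 h and 21.8 (B-H1) to 370 (chp) FPKM at 21 h APF. Of these markers, 8 had a ratio below 0, as had 50.8% of all genes, with a median log2 ratio of -0.58 over the 9. Only chp fell, at a log2 ratio of -1.17, and none rose. Germline markers were under 1 FPKM at both stages (5 of 5 genes), and so were all hemocyte markers but Pxn, with He listed at 0 at both. Pxn had 53.4 FPKM at 40 h against 1.92 FPKM at 21 h APF. Of the 4 glial markers 2 rose and none fell, and of the 5 fat body markers none rose or fell. The shares of all genes were 13.9% that rose and 9.62% that fell. Of the 5 muscle markers 2 passed the minimum, of which Mef2 fell, with 3.51 FPKM at 40 h against 16.5 FPKM at 21 h APF. Of those that did not pass, up and Mhc were higher at 40 h, at 1.72 and 0.794 FPKM against 0.0778 and 0.0214 FPKM at 21 h. The last, twi, was lower, at 0.0885 FPKM at 40 h against 0.527 FPKM at 21 h. FPKM summed over all genes to 562299 at 40 h and 557572 at 21 h APF.

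Most of the mitosis genes were lower at the later stage. Of the 49 genes, 48 passed the minimum. The remaining one was cid, the centromeric histone, with 0.0227 FPKM at 40 h against 0.930 FPKM at 21 h APF. Among the 48 genes, 32 fell, 1 rose and 15 changed by less than 2-fold. Over all genes that passed the minimum, 9.62% fell and 13.9% rose by the same rule. The median log2 ratio of the 48 genes was -1.90, and 43 of them had a ratio below 0, as did 50.8% of all genes.

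The set also reached far into the range of large decreases. At least 4-fold lower were 22 of its genes, against 4.05% of all genes, and at least 8-fold lower were 14, against 2.15%. The 4 genes that fell at least 16-fold, as did 1.18% of all genes, were tum, polo, aurB and Incenp. Counts past these larger limits depend on the pseudocount. With 1 FPKM, aurB and Incenp were both at a log2 ratio of -3.09, short of 16-fold, thr at -1.90 and Klp3A at -1.80. With 0.01 FPKM, Klp61F and asp passed 16-fold as well, at -4.16 and -4.03. The summed level of the 49 genes was 544 FPKM at 40 h against 1213 FPKM at 21 h APF. Among the genes that passed the minimum, the median member stood at the percentile 13.0 of levels at 40 h and at the percentile 44.4 at 21 h. The set thus lay at the low end of expressed genes at 40 h and near their middle at 21 h APF.

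**Figure D1:**
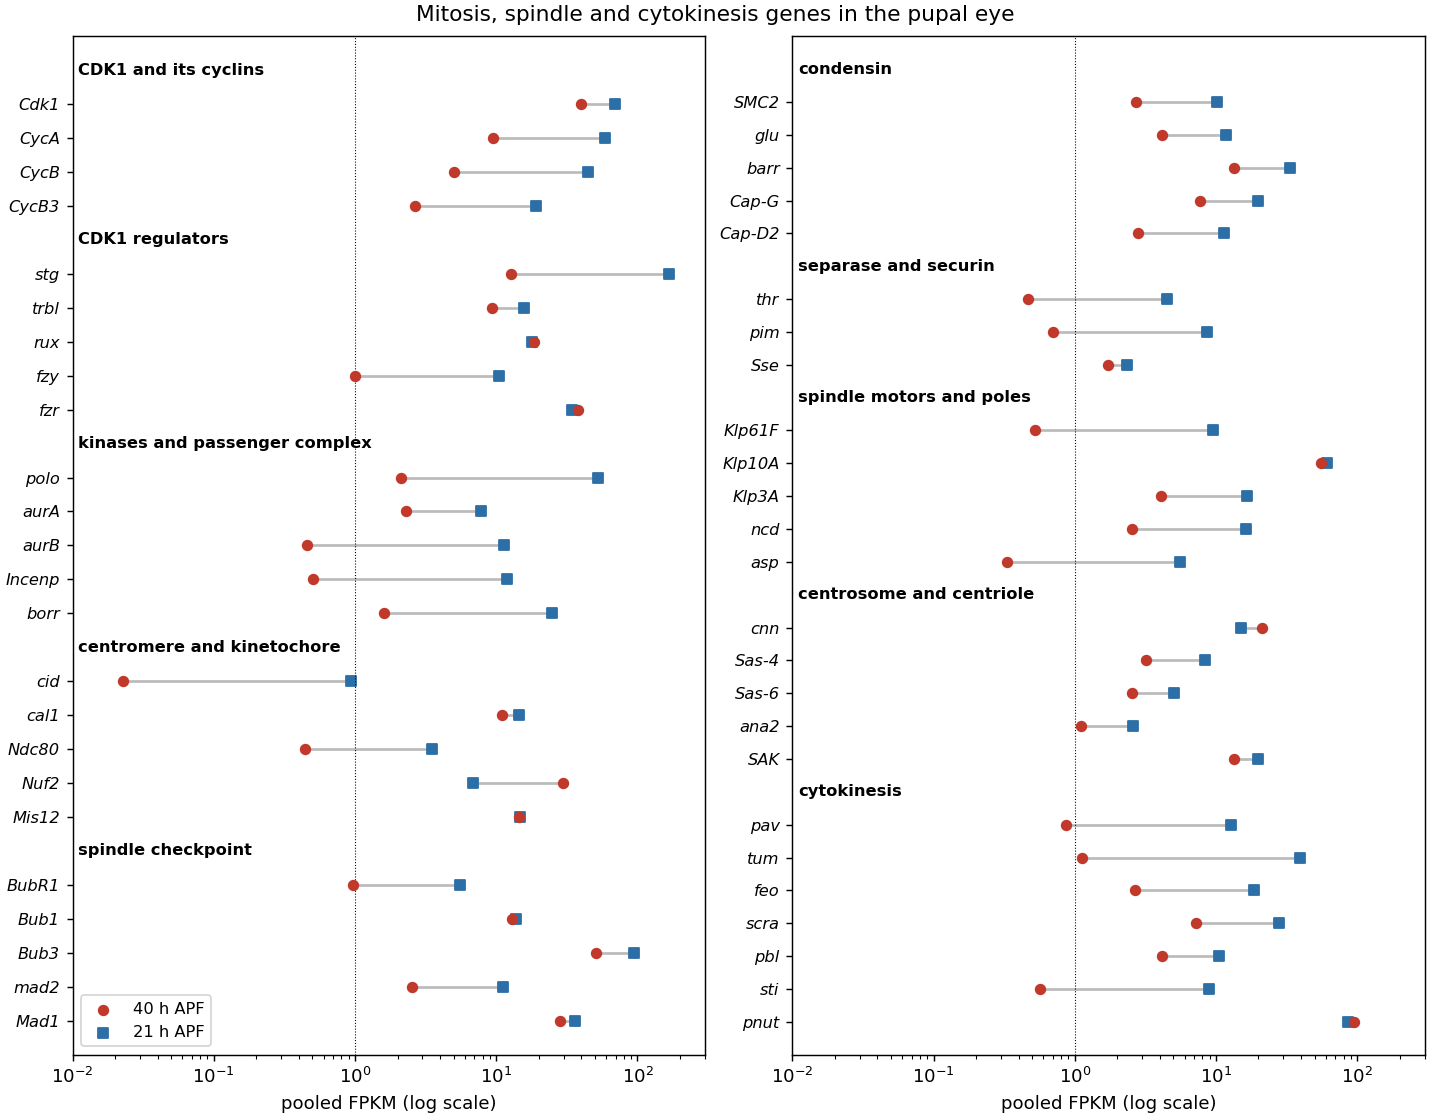
FPKM (log scale) of each of the 49 genes at 40 h APF (red circles) and 21 h APF (blue squares), grouped by role, each point being 1 value that the authors pooled over 3 libraries; the dotted line marks 1 FPKM. The red circles of 12 genes lie under 1 FPKM, whereas only the blue square of cid does, and the circle of Nuf2 lies to the right of its square.

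The cyclins of mitosis fell together, and their kinase less so. CycA (FBgn0000404, on chromosome 3L from 11826719 to 11833578 of BDGP6) stood at 9.55 FPKM at 40 h against 59.3 FPKM at 21 h APF, a log2 ratio of -2.62. CycB (FBgn0000405, 2R), the cyclin that carries CDK1 through metaphase, had 5.05 FPKM at 40 h against 45.0 FPKM at 21 h APF, a log2 ratio of -3.13. CycB3 (FBgn0015625, 3R), a cyclin destroyed later in mitosis, had 2.66 FPKM at 40 h against 19.1 FPKM at 21 h APF, a log2 ratio of -2.80. The 3 log2 ratios thus lay within a narrow band, and CycA remained the most abundant of the cyclins and CycB3 the least at both stages.

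Cdk1 (FBgn0004106, on chromosome 2L from 10384739 to 10386262), the kinase that all of these cyclins activate, had 39.7 FPKM at 40 h against 69.4 FPKM at 21 h APF. Its log2 ratio of -0.80 did not reach 2-fold. The level of Cdk1 was 2.30 times the summed level of the 3 cyclins at 40 h and 0.563 times that sum at 21 h APF. The kinase gene thus stood above the sum of its cyclins at the later stage and below it at the earlier one.

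The activator of CDK1 fell, whereas genes that act against CDK1 activity stayed within 2-fold. stg (FBgn0003525, on chromosome 3R from 29251826 to 29255800) encodes String, the Cdc25 phosphatase whose transcription sets the time of mitosis in many fly tissues. It was the most abundant member of the set at 21 h APF, with 12.8 FPKM at 40 h against 166 FPKM at 21 h, and its log2 ratio was -3.69. trbl, whose product Tribbles promotes the breakdown of String, had 9.36 FPKM at 40 h against 15.6 FPKM at 21 h APF, a log2 ratio of -0.73. rux encodes Roughex, an inhibitor of cyclin A activity first known from the eye disc, and had 18.4 FPKM at 40 h against 17.8 FPKM at 21 h APF. The level of stg was 1.37 times that of trbl at 40 h and 10.6 times at 21 h APF.

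The activators of the APC/C parted in the same way. fzy (FBgn0001086, on chromosome 2L) encodes Fizzy, the Cdc20 protein that activates the APC/C in mitosis and is held by the spindle checkpoint. It had 0.993 FPKM at 40 h against 10.5 FPKM at 21 h APF, a log2 ratio of -3.28. fzr (FBgn0262699, on chromosome X from 4667290 to 4679537) encodes Fizzy-related, the Cdh1 protein that keeps mitotic cyclins low outside mitosis, and had 37.8 FPKM at 40 h against 34.4 FPKM at 21 h APF. The log2 ratio of fzr was 0.14, and its level was 38.03 times that of fzy at 40 h and 3.26 times at 21 h APF.

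The mitotic kinases and the chromosomal passenger complex showed the deepest decrease of any role group. All 5 genes fell, with a median log2 ratio of -4.30. polo (FBgn0003124, on chromosome 3L from 20309654 to 20313466), the kinase that acts at centrosomes, kinetochores and the midbody, had 2.12 FPKM at 40 h against 52.8 FPKM at 21 h APF, a log2 ratio of -4.57. aurB, the kinase of the passenger complex, had 0.456 FPKM at 40 h against 11.4 FPKM at 21 h, a log2 ratio of -4.37.

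Those partners of aurB in that complex that belong to the set followed it closely. Incenp, its scaffold, had 0.507 FPKM at 40 h against 11.9 FPKM at 21 h APF, and borr, which encodes Borealin, had 1.61 FPKM at 40 h against 24.9 FPKM at 21 h. Their log2 ratios were -4.30 and -3.86, so that the 3 subunits examined here lay between -4.37 and -3.86. aurA, the related kinase of centrosomes and spindle poles, stood apart with 2.30 FPKM at 40 h against 7.85 FPKM at 21 h APF, a log2 ratio of -1.73. The level of aurA was 5.03 times that of aurB at 40 h and 0.687 times at 21 h. Of the exon bases of aurA, 9.70% lie on those of CG12213, a gene on the opposite strand with 63.9 FPKM at 40 h against 64.5 FPKM at 21 h APF.

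Genes of the centromere and kinetochore went in different directions. Ndc80, the kinetochore protein that grips the microtubule, had 0.443 FPKM at 40 h against 3.49 FPKM at 21 h APF, a log2 ratio of -2.73. Nuf2 (FBgn0031886, on chromosome 2L from 7064431 to 7065837), whose product forms a dimer with Ndc80, had 29.5 FPKM at 40 h against 6.85 FPKM at 21 h APF. With a log2 ratio of 2.09 it was the member that rose. A further subunit of the same complex, Spc25, which is not a member, had 1.66 FPKM at 40 h against 16.3 FPKM at 21 h APF, a log2 ratio of -3.22.

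Transcripts of the Ndc80 complex were thus far from equal at the later stage, with Nuf2 at 66.7 times the level of Ndc80 at 40 h and at 1.96 times its level at 21 h APF. Nuf2 lies at a locus that the table shares with Sem1, a gene on the opposite strand with 160 FPKM at 40 h against 174 FPKM at 21 h APF. The genes overlap by 37 exon bases, or 2.87% of the exon bases of Nuf2. Whether the libraries kept the strand is not given in the sources used here, and the part of Sem1 in the value of Nuf2 was not tested.

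Besides cid, described above, the group holds cal1 and Mis12, which stayed within 2-fold. cal1, which loads the centromeric histone, had 11.02 FPKM at 40 h against 14.4 FPKM at 21 h APF, a log2 ratio of -0.39, and 11.3% of its exon bases overlap those of cher on the opposite strand, which had 54.3 FPKM at 40 h against 13.3 FPKM at 21 h. Mis12, a subunit of the inner kinetochore platform, had 14.6 FPKM at 40 h against 14.8 FPKM at 21 h APF.

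In the spindle checkpoint 2 of 5 genes fell, with a median log2 ratio of -0.88 for the group. BubR1, which binds and blocks Fizzy, had 0.969 FPKM at 40 h against 5.50 FPKM at 21 h APF, a log2 ratio of -2.39. mad2, its partner in the inhibitory complex, had 2.53 FPKM at 40 h against 11.2 FPKM at 21 h, a log2 ratio of -2.11. In contrast, the kinase gene Bub1 had 13.0 FPKM at 40 h against 13.7 FPKM at 21 h APF, a log2 ratio of -0.08.

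Mad1, which recruits Mad2 and also resides at the nuclear envelope outside mitosis, had 28.1 FPKM at 40 h against 36.0 FPKM at 21 h APF. Bub3 was the most abundant of the group, with 51.0 FPKM at 40 h against 93.9 FPKM at 21 h, which is a log2 ratio of -0.88. Both stayed within 2-fold. Of the exon bases of Bub3, 15.9% overlap ppk19, which itself had 0.0163 FPKM at 40 h against 0.360 FPKM at 21 h, and 11.5% of those of mad2 overlap kri, at 29.4 FPKM at 40 h against 30.7 FPKM at 21 h APF.

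All 5 condensin genes of the set fell, and by similar amounts. Genes of condensin II, which are not members, are described below. Condensin is the ring that compacts chromosomes for division, made of a pair of SMC proteins and further subunits. Log2 ratios ran from -1.97 for Cap-D2 to -1.30 for barr, with a median of -1.48, a narrower spread than in any other role group of 4 or more genes that passed the minimum. The highest level was that of barr, the kleisin that closes the ring, at 13.4 FPKM at 40 h against 33.2 FPKM at 21 h APF. The SMC genes had 2.73 FPKM at 40 h against 10.1 FPKM at 21 h APF for SMC2, and 4.17 FPKM at 40 h against 11.8 FPKM at 21 h for glu. Cap-G had 7.65 FPKM at 40 h against 19.8 FPKM at 21 h, and Cap-D2 had 2.82 FPKM at 40 h against 11.3 FPKM at 21 h APF.

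Of the genes that release sister chromatids, pim and thr fell and Sse stayed within 2-fold. pim, the securin of the fly, had 0.705 FPKM at 40 h against 8.68 FPKM at 21 h APF, a log2 ratio of -3.45. thr, whose product joins separase in a complex, had 0.470 FPKM at 40 h against 4.47 FPKM at 21 h, a log2 ratio of -3.003. The protease itself, Sse, was low at both stages, with 1.73 FPKM at 40 h against 2.34 FPKM at 21 h APF, a log2 ratio of -0.42. Sse shares its locus in the table with 4 other genes, without shared exon bases.

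**Figure D2:**
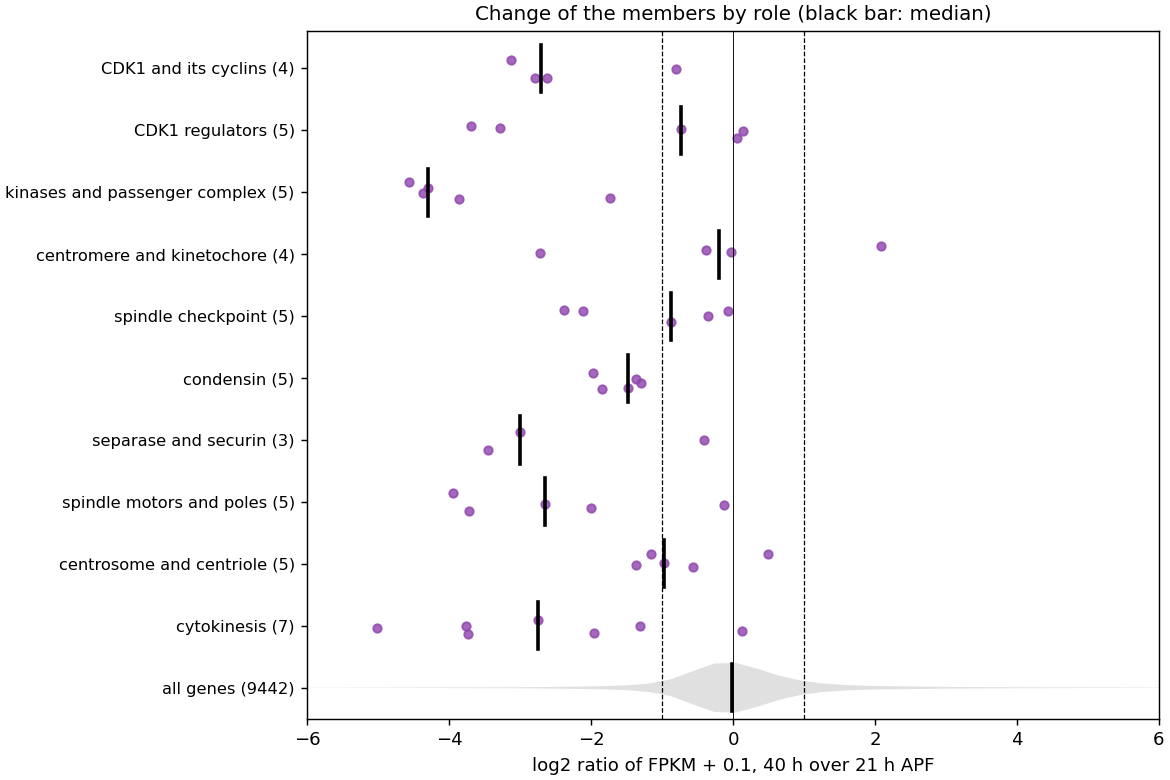
Log2 ratio of FPKM + 0.1 at 40 h over 21 h APF for the 48 genes that passed the minimum, in rows by role with the number of genes in brackets, above a density of all 9442 genes; black bars are medians and dashed lines mark 2-fold. The kinases and passenger complex have their median at -4.30, condensin at -1.48 and all genes at -0.01; 150 of all genes lie outside the axis, which ends at -6 and 6.

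Among motors and pole proteins of the spindle, 4 of 5 genes fell. Klp61F, the kinesin-5 that pushes the poles apart, had 0.520 FPKM at 40 h against 9.48 FPKM at 21 h APF, a log2 ratio of -3.95, and asp, which focuses the poles, had 0.330 FPKM at 40 h against 5.55 FPKM at 21 h, a log2 ratio of -3.71. ncd, a kinesin-14 that moves towards the minus ends, had 2.53 FPKM at 40 h against 16.4 FPKM at 21 h APF, a log2 ratio of -2.65. Klp3A, a kinesin-4 of the central spindle, had 4.08 FPKM at 40 h against 16.6 FPKM at 21 h APF, a log2 ratio of -2.001. The exception was Klp10A, a kinesin-13 that shortens microtubules in dividing and non-dividing cells, with 55.7 FPKM at 40 h against 60.7 FPKM at 21 h APF.

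Genes of the centrosome and the centriole had a median log2 ratio of -0.98, and 2 of 5 fell. Sas-4, which builds the centriole wall, had 3.19 FPKM at 40 h against 8.39 FPKM at 21 h APF, a log2 ratio of -1.37, and ana2, a duplication factor, had 1.10 FPKM at 40 h against 2.57 FPKM at 21 h, a log2 ratio of -1.15. Sas-6, the cartwheel protein, lay just short of 2-fold, with 2.52 FPKM at 40 h against 5.06 FPKM at 21 h, which is a log2 ratio of -0.98. The call of ana2 was lost with a pseudocount of 1 FPKM, at a log2 ratio of -0.76.

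SAK, the Polo-like kinase that starts centriole duplication, had 13.5 FPKM at 40 h against 20.0 FPKM at 21 h APF, a log2 ratio of -0.56. Of its exon bases, 18.1% overlap M6, on the opposite strand with 174 FPKM at 40 h against 117 FPKM at 21 h. cnn, which encodes Centrosomin of the pericentriolar matrix, had the second highest ratio of the set, with 21.3 FPKM at 40 h against 15.0 FPKM at 21 h, which is a log2 ratio of 0.50. It did not pass the 2-fold rule.

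Cytokinesis genes held the largest decrease of the set. tum (FBgn0086356, on chromosome 2R), which encodes the RacGAP of centralspindlin, had 1.12 FPKM at 40 h against 39.5 FPKM at 21 h APF, a log2 ratio of -5.02. pav, the kinesin-6 in the same complex, had 0.870 FPKM at 40 h against 12.8 FPKM at 21 h, a log2 ratio of -3.74. pbl, the RhoGEF that centralspindlin recruits to the cortex, had the smallest decrease of the 6 genes that fell in this group, with 4.16 FPKM at 40 h against 10.5 FPKM at 21 h, which is a log2 ratio of -1.32.

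Other factors of the furrow and midbody fell as well. sti, the citron kinase of the midbody ring, had 0.564 FPKM at 40 h against 8.89 FPKM at 21 h APF, a log2 ratio of -3.76. feo, which bundles the central spindle, had 2.68 FPKM at 40 h against 18.6 FPKM at 21 h, a log2 ratio of -2.75, and scra, the Anillin gene, had 7.17 FPKM at 40 h against 28.1 FPKM at 21 h, a log2 ratio of -1.96. The septin gene pnut, in contrast, had 95.0 FPKM at 40 h against 86.6 FPKM at 21 h APF. With a log2 ratio of 0.13 it was the most abundant member at 40 h APF.

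The most abundant members held much of the summed level at both stages. At 40 h APF the 5 highest, pnut, Klp10A, Bub3, Cdk1 and fzr, held 51.3% of the summed level of the 49 genes. At 21 h the 5 highest, stg, Bub3, pnut, Cdk1 and Klp10A, held 39.3%. Only 9 members lay above the median of all genes that passed the minimum at 40 h, against 19 members at 21 h. Conversely, 9 members had at least 5 FPKM at 21 h and under 1 FPKM at 40 h APF. These were fzy, aurB, Incenp, BubR1, pim, Klp61F, asp, pav and sti, which is 20.5% of the 44 members at or above 5 FPKM at 21 h, where 1.44% of the 7417 genes at or above that level did the same.

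**Figure D3:**
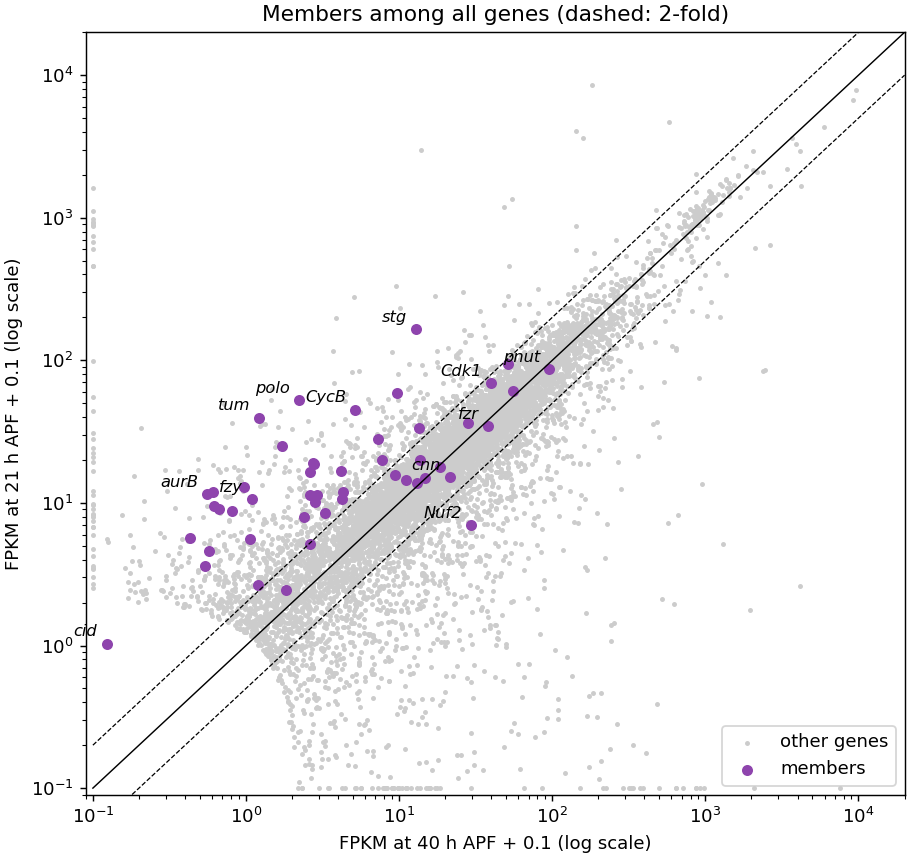
FPKM + 0.1 at 40 h APF (x axis) against 21 h APF (y axis), both on log scales, for all genes that passed the minimum (grey) and the 49 members (purple); the solid line marks equal levels and the dashed lines 2-fold. Of the members, 32 that passed the minimum and cid lie above the upper dashed line, and Nuf2 alone lies below the lower one.

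Gene structure and position did not enter the choice of the genes. Across the 48 genes, the log2 ratio had a Spearman's rho of -0.06 with the number of exon bases and of -0.08 with the number of exon blocks, given as descriptions over genes that share the same libraries. Genes that fell were found on every large chromosome arm that carries members, with 9 of 12 on 2R, 6 of 9 on 2L, 7 of 11 on 3L, 7 of 10 on 3R and 3 of 6 on X. The 6 members with over 10% of exon bases on those of another gene had a median log2 ratio of -1.50, and 3 of them fell.

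Other genes of mitosis, from lists of 95 names that were all found in the table, were examined beside the set. Of the 93 that passed the minimum, 31 fell, 1 rose and 61 changed by less than 2-fold, with a median log2 ratio of -0.64. This is 33.3% that fell, against 9.62% of all genes, and 1.08% that rose, against 13.9% of all genes. In the kinetochore and checkpoint list 11 of 15 genes fell, with a median log2 ratio of -1.73.

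In that list, Zwilch, a subunit of the complex that brings dynein to kinetochores, had 0.574 FPKM at 40 h against 8.33 FPKM at 21 h APF, a log2 ratio of -3.65. cmet, a CENP-E kinesin, had 0.202 FPKM at 40 h against 2.79 FPKM at 21 h, a log2 ratio of -3.26. At the other end, cana, the neighbouring CENP-E gene, had 7.01 FPKM at 40 h against 11.4 FPKM at 21 h APF. Haspin, a histone kinase, had 29.4 FPKM at 40 h against 35.4 FPKM at 21 h, and Nnf1b, a subunit found with Mis12, had 4.75 FPKM at 40 h against 2.96 FPKM at 21 h, a log2 ratio of 0.66. Zw10, which also works in membrane traffic, had 13.1 FPKM at 40 h against 21.99 FPKM at 21 h APF.

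Spindle and centrosome genes outside the set fell in 15 of 32 cases, or 46.9% against 9.62% of all genes, with a median log2 ratio of -0.87. The kinesin-8 gene Klp67A had 0.853 FPKM at 40 h against 12.0 FPKM at 21 h APF, a log2 ratio of -3.66. The augmin subunit gene msd1 had 0.267 FPKM at 40 h against 4.32 FPKM at 21 h, a log2 ratio of -3.59, and spd-2, which recruits the pericentriolar matrix, had 0.476 FPKM at 40 h against 5.05 FPKM at 21 h, a log2 ratio of -3.16. Within the list, 6 of 8 augmin genes fell and 1 of 7 genes of the gamma-tubulin ring did, with medians of -1.48 and -0.20 on the log2 scale. These shares are 75% and 14.3%, the latter near the 9.62% of all genes.

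The highest ratios and levels of that list stayed within 2-fold. Eb1, which tracks growing plus ends, had 231 FPKM at 40 h against 186 FPKM at 21 h APF, a log2 ratio of 0.31, and tacc had 133.5 FPKM at 40 h against 118 FPKM at 21 h. Its partner msps, a microtubule polymerase, had 75.4 FPKM at 40 h against 65.4 FPKM at 21 h APF, and Plp, a pericentrin, had 43.6 FPKM at 40 h against 37.9 FPKM at 21 h.

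Of 9 genes of cytokinesis that also serve the cytoskeleton of non-dividing cells, 1 fell, 1 rose and 7 stayed within 2-fold, with a median log2 ratio of 0.03. The share that fell, 11.1%, was near the 9.62% of all genes, and the share that rose was near the 13.9% of all genes. Both of the genes that passed 2-fold encode septins, which form filaments at the furrow together with the product of pnut. Septin4 (FBgn0259923, on chromosome X) rose, with 78.2 FPKM at 40 h against 31.6 FPKM at 21 h APF, a log2 ratio of 1.31. Septin5 (FBgn0026361, 2R) fell, with 2.33 FPKM at 40 h against 9.62 FPKM at 21 h, a log2 ratio of -2.002. Septin1 had 65.8 FPKM at 40 h against 92.6 FPKM at 21 h APF, and Septin2 had 105 FPKM at 40 h against 119 FPKM at 21 h, so that the septins did not share a direction. The most abundant of the list were Rho1, with 263 FPKM at 40 h against 258 FPKM at 21 h APF, and sqh, the myosin regulatory light chain, with 204 FPKM at 40 h against 192 FPKM at 21 h. zip, its heavy chain, had 136 FPKM at 40 h against 116 FPKM at 21 h. The formin gene dia had 22.3 FPKM at 40 h against 13.9 FPKM at 21 h APF, and the kinase gene Rok had 19.7 FPKM at 40 h against 22.9 FPKM at 21 h.

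Among genes of the CDK1 switch and the APC/C, 2 of 22 fell, with a median log2 ratio of -0.44. This share of 9.09% was close to the 9.62% of all genes. The genes that fell were gwl, the Greatwall kinase that shields mitotic phosphorylation, with 0.576 FPKM at 40 h against 3.85 FPKM at 21 h APF, and Cks30A, a small CDK1 partner, with 3.49 FPKM at 40 h against 9.69 FPKM at 21 h. Their log2 ratios were -2.55 and -1.45. Of 9 core APC/C genes, a count that leaves out lmgA, described below, 8 passed the minimum. Their ratios lay between -0.88 and -0.15. None of these 8 fell by the 2-fold rule, a share near the 9.62% of all genes, while their activator fzy did. mr, one of these subunits, had 12.1 FPKM at 40 h against 22.4 FPKM at 21 h APF.

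The phosphatase subunits mts and Pp2A-29B, with many roles outside mitosis, were the most abundant of that list, at 260 and 212 FPKM at 40 h against 343 and 256 FPKM at 21 h APF. The highest ratio belonged to lmgA, with 52.1 FPKM at 40 h against 26.8 FPKM at 21 h, a log2 ratio of 0.95. It was followed by twe, the Cdc25 gene of meiosis, with 1.63 FPKM at 40 h against 1.16 FPKM at 21 h, and by Cks85A, with 23.3 FPKM at 40 h against 17.8 FPKM at 21 h APF. Of the exon bases, 100% in lmgA, 4.12% in twe and 74.9% in Cks85A overlap other genes.

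Cohesion genes and those of condensin II mostly stayed within 2-fold. Of the list 2 of 15 fell, or 13.3% against 9.62% of all genes, with a median log2 ratio of -0.49. Top2, the topoisomerase that untangles sister chromatids, had 42.5 FPKM at 40 h against 91.4 FPKM at 21 h APF, a log2 ratio of -1.10, and dmt, which protects cohesion, had 7.07 FPKM at 40 h against 15.1 FPKM at 21 h, a log2 ratio of -1.09. Mau2, of the cohesin loader, had 6.21 FPKM at 40 h against 11.4 FPKM at 21 h APF. vtd, the kleisin of cohesin, had 77.2 FPKM at 40 h against 73.3 FPKM at 21 h, and wapl, which opens the ring, had 14.7 FPKM at 40 h against 14.5 FPKM at 21 h. san, an acetyltransferase, had 55.8 FPKM at 40 h against 47.4 FPKM at 21 h APF. Of condensin II, Cap-D3 had 2.94 FPKM at 40 h against 4.26 FPKM at 21 h, a log2 ratio of -0.52. Cap-H2 had 15.4 FPKM at 40 h against 21.2 FPKM at 21 h APF, a log2 ratio of -0.46.

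Regulators of G1 and the dREAM complex, which represses mitotic genes together with E2F and Rbf proteins, had ratios below 0 in 17 of 17 cases. Most of these decreases were less than 2-fold, and 50.8% of all genes had a ratio below 0. Of the 17 genes 4 fell, or 23.5% against 9.62% of all genes, and the median log2 ratio was -0.80. dap, the p21/p27 inhibitor that helps cells leave the cycle, had 25.6 FPKM at 40 h against 76.0 FPKM at 21 h APF, a log2 ratio of -1.57. CycD had 10.4 FPKM at 40 h against 24.1 FPKM at 21 h, a log2 ratio of -1.20, and Cdk2, which shares 43.9% of its exon bases with other genes, had 7.54 FPKM at 40 h against 17.7 FPKM at 21 h, a log2 ratio of -1.22. Rbf2, a second retinoblastoma family gene, had 1.49 FPKM at 40 h against 3.26 FPKM at 21 h APF, a log2 ratio of -1.07. The transcription factor gene E2f1 had 54.3 FPKM at 40 h against 91.8 FPKM at 21 h APF.

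The other 13 genes of that list stayed within 2-fold. Rbf, the retinoblastoma protein, had 22.5 FPKM at 40 h against 30.7 FPKM at 21 h APF, and Myb, the dREAM subunit that activates mitotic genes, had 41.2 FPKM at 40 h against 60.2 FPKM at 21 h. Caf1-55 had 48.2 FPKM at 40 h against 83.8 FPKM at 21 h APF, and lin-52, with 47.9% of its exon bases on those of other genes, had 8.28 FPKM at 40 h against 8.80 FPKM at 21 h. The 11 genes of dREAM and E2F had log2 ratios between -1.07 and -0.09.

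**Figure D4:**
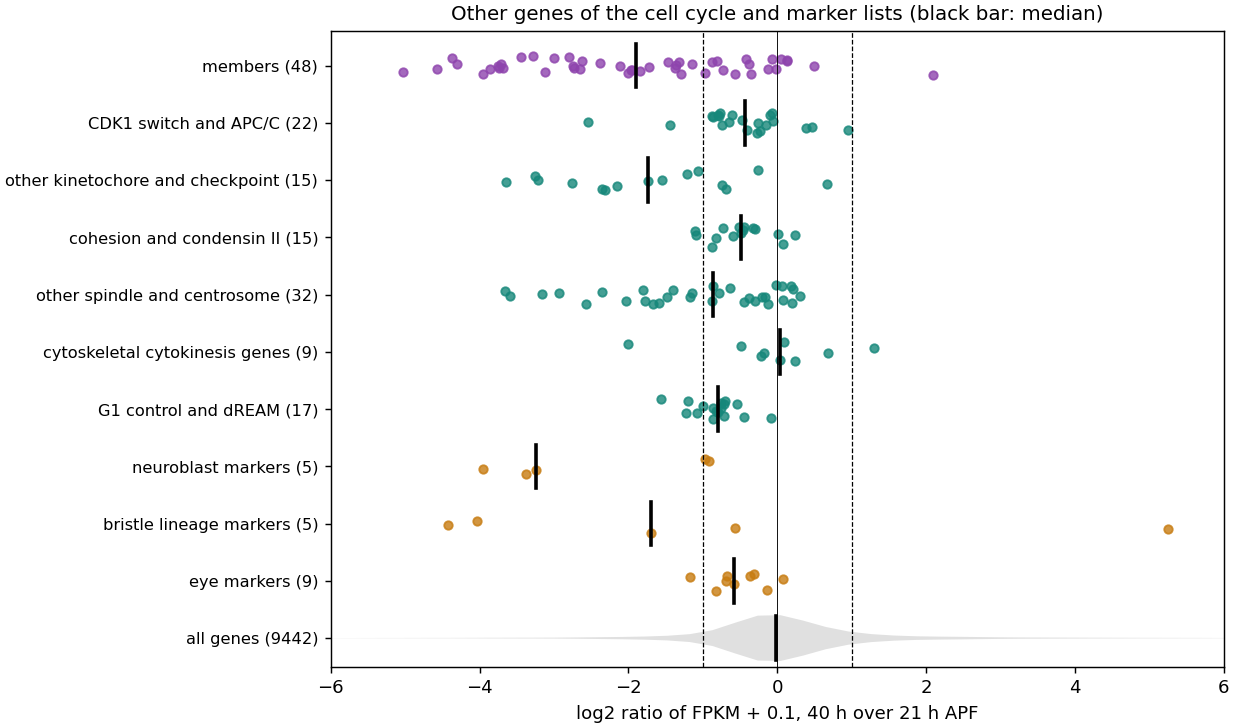
Log2 ratio of FPKM + 0.1 at 40 h over 21 h APF for genes that passed the minimum, with the 48 members on top (purple), other cell cycle lists (green), marker lists (orange) and a density of all 9442 genes, numbers of genes in brackets; black bars are medians and dashed lines mark 2-fold. The members have their median at -1.90, the other kinetochore and checkpoint genes at -1.73 and the cytoskeletal genes of cytokinesis at 0.03; 150 of all genes lie outside the axis, which ends at -6 and 6.

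Some genes listed as markers of neuroblasts, the dividing precursors of the nervous system, also fell. Whether these eyes held neuroblasts apart from the bristle lineage was not tested. Of the 6 markers in that list, 5 passed the minimum, of which 3 fell, or 60% against 9.62% of all genes, and 2 stayed within 2-fold. The summed level of the 6 was 22.9 FPKM at 40 h against 78.6 FPKM at 21 h APF, with none at 0. mira had 1.84 FPKM at 40 h against 20.0 FPKM at 21 h, ase had 0.483 FPKM at 40 h against 5.42 FPKM at 21 h, and dpn, which shares 59.3% of its exon bases with another gene, had 0.823 FPKM at 40 h against 14.2 FPKM at 21 h APF. grh, which epithelia also express and which held most of the summed level at 40 h, had 17.7 FPKM at 40 h against 34.7 FPKM at 21 h, a log2 ratio of -0.97. insc had 2.06 FPKM at 40 h against 3.98 FPKM at 21 h APF, a log2 ratio of -0.92. Neither passed 2-fold. wor, which is specific to neuroblasts, did not pass the minimum and had 0.0523 FPKM at 40 h against 0.314 FPKM at 21 h.

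Markers of the bristle lineage, which divides in the early pupal eye, went in both directions. Of its 5 markers 3 fell and 1 rose, or 60% and 20%, against 9.62% and 13.9% of all genes. Their summed level was 61.3 FPKM at 40 h against 38.3 FPKM at 21 h APF, with none at 0. The proneural genes ac and sc had 0.0696 and 0.0812 FPKM at 40 h against 2.69 and 3.80 FPKM at 21 h, and sens had 2.21 FPKM at 40 h against 7.37 FPKM at 21 h APF. nompA, made by a support cell of the finished sensory organ, had 43.2 FPKM at 40 h against 1.04 FPKM at 21 h. The part of neuroblasts, bristle precursors or any other cell type in the decrease of the mitosis genes was not tested.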

How the data were processed

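Whole pupal eyes of Canton S flies were sequenced at 40 h and 21 h APF, with 3 libraries at each stage. The authors aligned paired-end reads to the BDGP6 assembly using bowtie2, took gene models from Ensembl release 93, and deposited FPKM values that Cuffdiff pooled over replicates after geometric normalization and bias correction. Tool versions are not given in the sources used here. The table also holds the authors' own ratio, test score, p-value, q-value and call, which were not used. Log2 ratios were computed from the FPKM values with a pseudocount of 0.1 FPKM, a minimum mean of 1 FPKM and a limit of 2-fold, and no test was possible. The fold rule was tested on simulated data.

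Positions and exon overlaps, on either strand, were read from the gene models of Ensembl release 115, also on BDGP6. Of 9207 genes alone at their locus, 99.2% had both ends within 1 base of the table's locus, and all 49 members were found. Members, role groups and lists were chosen with earlier results of these data known. The genes named are all members and, of each other mitosis or G1 list, the 3 highest and the 3 lowest ratios and the 2 most abundant genes. A few further genes, such as Rbf2 and Septin2, were named after their values were seen. The name column held a spreadsheet date number for 5 genes, 4 of them listed septins, which were named from their FlyBase identifiers. List names absent from the table were matched through RefSeq synonyms, which found lmgA, Rok and these septins. Promoter motifs and protein sequences were not used here. Alternatives were other pseudocounts, minimums, fold limits and scalings, and leaving out genes at shared loci. Computations ran in Python 3.11.15 (pandas 2.3.3, numpy 2.4.6 and scipy 1.17.1), with plots from matplotlib 3.10.9.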

Additional observations from a re-analysis of the deposited data

How the results depend on the processing

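The number of members that fell was 32 as reported. It lay between 25 and 36 with other pseudocounts, minimums, fold limits and scalings. The 36 were found with a limit of 1.5-fold, by which 17.5% of all genes fell. The 25 were of 39 members with a minimum of 5 FPKM, where 6.68% of all genes fell. Without the members at a locus shared with another gene, 21 of 28 fell, where fewer members remained. Nuf2 is among those left out, so the number that rose was then 0 in place of 1. The median log2 ratio of the members lay between -2.20 and -1.60 over these settings. Without members at a shared locus, the medians of 3 role groups passed 2-fold, at -1.37 for centromere and kinetochore, -1.37 for centrosome and centriole and -1.23 for the spindle checkpoint. The centrosome value was then that of Sas-4 alone. The centromere value lay midway between Ndc80 and Mis12, and the checkpoint value midway between BubR1 and Bub1, so that these are not shifts of whole groups. The median of centrosome and centriole also passed 2-fold with a pseudocount of 0.01 FPKM, at -1.0002, where Sas-6 reached -1.0002. It did so as well at -1.06 without members that share over 10% of exon bases, an alternative chosen after seeing the data. Under that alternative the medians of the other groups named here lay closer to 0, at -0.36 for the spindle checkpoint, against -0.88 as reported, and at -0.02 for centromere and kinetochore, against -0.20 as reported. With a pseudocount of 1 FPKM, ana2 was at -0.76. Of the other 277 ratios of single members under these settings, none changed its side of 2-fold or its direction.

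No paired analysis was possible because the table has 1 pooled value per stage, and no replicate was left out for the same reason. The study states the mapped reads of each library, but the pooled FPKM carry no fragment counts per gene, so that no counting interval was given for members under 1 FPKM at 40 h APF.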
